A study of Mus musculus with 2 samples.

Results

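Of the 2202 miRNA genes counted in the cerebral cortex of aged mice, 10 make up 6 families that are known as enriched in neurons: Mir128-1 and Mir128-2, Mir137, Mir138-1 and Mir138-2, Mir218-1 and Mir218-2, Mir153, and Mir129-1 and Mir129-2. They were taken by gene symbol, whatever their level. The tissue was left cerebral cortex of B6CASTF1/J mice, F1 animals from a cross of C57BL/6J with CAST/EiJ, at 18 to 20 months, untreated as far as the labels say, and RNA shorter than 30 nucleotides was sequenced. The labels hold 1 group of 2 biological replicates. They give the sex as female in 2 fields but as male in a free-text one, and name 1 donor for both libraries, so what separates the replicates may be technical rather than a difference between animals. Sense counts over all miRNA genes came to 5166667 and 4459993 in replicates 1 and 2, and levels are given as CPM, the sense count of a gene per 1000000 of these. In bulk tissue, fewer neurons and less of a miRNA per neuron cannot be told apart.

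A miRNA gene is transcribed into a hairpin, which is cut into a pair of arms of about the length of the printed sequences. An arm loaded into Argonaute finds its target mRNAs mainly through its seed (bases 2 to 8 of the arm) and lowers their translation and stability. In the brain, miR-128 rises as neurons mature and restrains their excitability in mice. Neuronal maturation and synapses depend on miR-137, and miR-138 limits the size of dendritic spines in rat neurons. In mice miR-218 is a miRNA of motor neurons, miR-153 acts on vesicle release, and miR-129 acts on potassium channel translation in rodent neurons. The counts are per hairpin gene and do not separate the arms.

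The sequences decide what a count at each gene can hold, so the arms that define the families are shown first, 5′ to 3′ from RefSeq (GRCm38.p6), with the seed in capitals. The first 4 are each encoded at 2 genes and the last 2 at 1 gene.
mmu-miR-128-3p: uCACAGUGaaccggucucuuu
mmu-miR-138-5p: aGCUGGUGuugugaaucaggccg
mmu-miR-218-5p: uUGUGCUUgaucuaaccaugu
mmu-miR-129-5p: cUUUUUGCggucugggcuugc
mmu-miR-137-3p: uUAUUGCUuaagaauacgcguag
mmu-miR-153-3p: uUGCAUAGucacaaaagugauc
These 6 arms have 6 different seeds. Among the mature miRNAs listed by RefSeq, the seed of miR-218-5p was also found in miR-7002-3p, whose gene Mir7002 had 0 sense counts in both libraries. No gene outside the families shared the seed of any of the other 5 arms.

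In each 2-copy family 1 arm is identical at both genes. The other arm differs in miR-128, miR-138 and miR-218, and for Mir129-1 RefSeq lists no second arm. The hairpin of Mir129-1 still holds most of the listed 3p arm of Mir129-2, its seed included. Short 3p reads of miR-129 may therefore match both genes too, which was not tested. A read that spans the shared arm and no more matches both genes alike. For miR-128 the identical stretch is 23 bases long and ends with the arm, so that 1 further base at the 3′ end tells the copies apart. The hairpins of both copies show this, with the stretch they share in capitals.
Mir128-1: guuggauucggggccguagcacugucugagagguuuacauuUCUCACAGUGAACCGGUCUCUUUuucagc
Mir128-2: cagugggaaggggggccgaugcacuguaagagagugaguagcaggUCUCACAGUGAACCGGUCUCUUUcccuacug
The stretch shared by Mir138-1 and Mir138-2 was at least 24 bases, since it reaches the annotated start of Mir138-2, and it too ends with the arm. The miR-218 copies shared 22 bases and need 2 further bases at the 3′ end, and the miR-129 copies shared 26 bases and need 4. In the miR-129 hairpins, again with the shared stretch in capitals, the common part runs past the arm on both sides.
Mir129-1: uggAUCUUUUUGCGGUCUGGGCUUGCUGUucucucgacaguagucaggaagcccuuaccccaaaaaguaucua
Mir129-2: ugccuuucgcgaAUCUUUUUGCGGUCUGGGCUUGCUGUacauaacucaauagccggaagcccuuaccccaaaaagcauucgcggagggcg

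The arms that differ between the copies are those a read can place without further bases. They are shown for miR-138 and miR-218, with the seed in capitals.
mmu-miR-138-1-3p: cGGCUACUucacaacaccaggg
mmu-miR-138-2-3p: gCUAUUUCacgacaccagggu
mmu-miR-218-1-3p: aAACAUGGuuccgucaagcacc
mmu-miR-218-2-3p: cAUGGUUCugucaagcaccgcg
In each of these pairs the seeds differ, and the longest run in common is 9 bases for miR-138 and 10 for miR-218. The 5p arms of miR-128, miR-128-1-5p and miR-128-2-5p, have the same seed, GGGGCCG, and share no run longer than 7 bases. Mir137 and Mir153 have no copy: their longest stretch in common with any other annotated miRNA gene was 11 and 10 bases. Reads that matched several places were listed apart and not assigned to genes (41.8% and 46.4% of reads in the 2 tables), so levels of the 8 genes with a copy are uncertain and may be too low. How many of those reads came from these families was not tested. Reads from the CAST/EiJ parent that differ from the reference may also be missing, which was not tested.

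**Figure D1:**
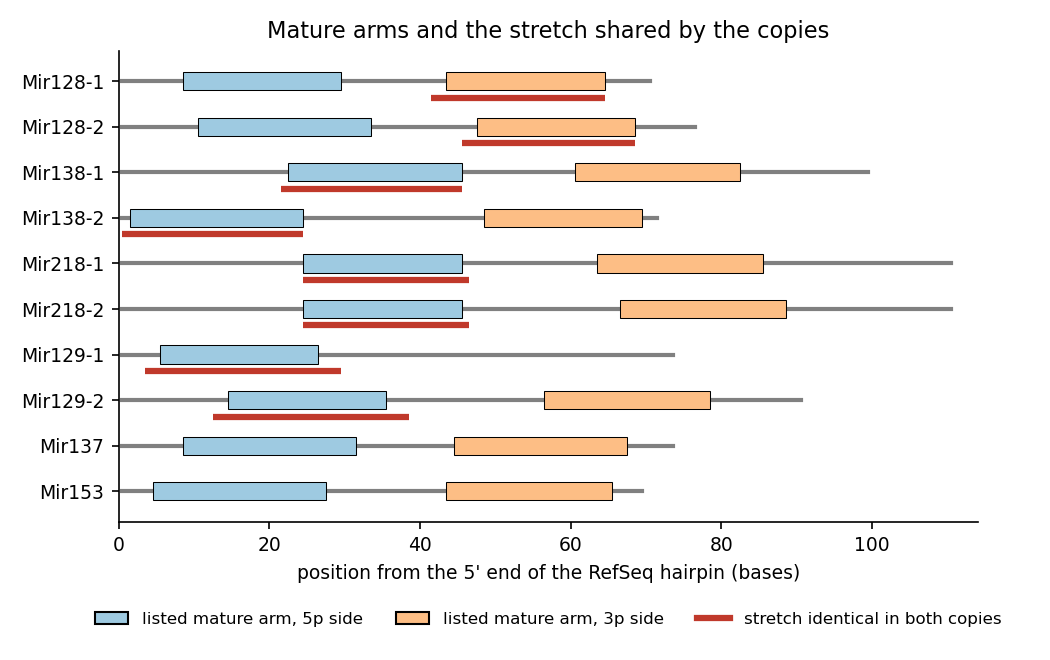
Map of the 10 hairpins from their 5′ end, in bases, with the mature arms that RefSeq lists (boxes) and the stretch that is identical in both copies of a family (red lines). The shared stretch covers the 3p arm in the miR-128 copies and the 5p arm in the miR-138, miR-218 and miR-129 copies. Within the annotated hairpins it is longest in miR-129 at 26 bases, and Mir137 and Mir153 have none. A further run shared on the 3p side of the miR-129 hairpins is not drawn.

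Coordinates are given in mm10, on the + strand where no strand is named. Mir128-1 (chr1:128202361-128202430, + strand) lies in an intron of R3hdm1, a gene for an R3H domain protein, and Mir128-2 (chr9:112118636-112118711, − strand) in an intron of Arpp21, a gene for a neuronal phosphoprotein that binds RNA. The miR-218 genes lie in introns of axon guidance genes, Mir218-1 (chr5:48223942-48224051) in Slit2 and Mir218-2 (chr11:35616816-35616925) in Slit3. Mir153 (chr12:117250817-117250885) lies in an intron of Ptprn2, a gene for a protein of secretory vesicles, with the antisense gene Gm5441 on the other strand. All 5 of these are on the strand of their host. The others lie in non-coding transcripts: Mir137 (chr3:118433857-118433929) in an exon of Gm26871, Mir138-1 (chr9:122682876-122682974) in an exon of the pseudogene Gm47135, Mir138-2 (chr8:94324311-94324381) in an exon of the lincRNA C78859, Mir129-1 (chr6:29022619-29022691) in an exon of the lincRNA Gm3294, and Mir129-2 (chr2:94241364-94241453, − strand) in an intron of the lincRNA Mir670hg. Mir129-2 has Mir129b on the opposite strand, within its own hairpin. The 1 other annotated miRNA gene within 10 kb of any of them, Gm24155 near Mir137, had 0 and 1 sense counts.

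All 10 genes were expressed, here 2 CPM or more in both libraries, and 9 of the 10 lay above the median of the 409 expressed genes, 88.9 CPM. Together they held 40730 and 33938 CPM in replicates 1 and 2 (37334 ± 4802, SD, n = 2), or 3.73% ± 0.480 of sense counts. Their levels covered a wide range, from the 33.0 CPM of Mir218-1 to the 17218 CPM of Mir128-1 in the mean. The miR-128 family held the most, 57.7% of the 10 genes' counts in replicate 1 and 49.6% in replicate 2. The miR-138 family held 19.7% and 22.0%, miR-137 held 12.8% and 23.7%, and miR-129 held 8.94% and 3.20%. The miR-153 gene and the miR-218 family each held under 1% in both libraries. Reads that matched several places are not in these shares, so those of the families with 2 genes may be too low.

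Mir128-1, 1 of 2 sources of the excitability-restraining miR-128-3p, had 105184 sense counts in replicate 1 and 62785 in replicate 2. These are levels of 20358 and 14077 CPM (17218 ± 4441, SD, n = 2), rank 13 and rank 14 of all miRNA genes. Mir128-2, the copy in Arpp21, had 16282 and 12342 counts, levels of 3151 and 2767 CPM (2959 ± 271.6). It stood below Mir128-1 in both libraries with no overlap of their ranges.

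Mir137, the single gene of its family, had 26881 counts in replicate 1 and 35826 in replicate 2, or 5203 and 8033 CPM (6618 ± 2001), which is rank 36 in replicate 1 and rank 25 in replicate 2. Mir138-1 had 25699 and 20321 counts, or 4974 and 4556 CPM (4765 ± 295.4). Mir138-2 had 15803 and 12926 counts, or 3059 and 2898 CPM (2978 ± 113.4). By CPM the spine-limiting miR-138 genes were the steadiest of the set, with a coefficient of variation of 6.20% for Mir138-1 and 3.81% for Mir138-2. This rank depends on the scaling. With DESeq2 size factors Mir128-2 had the smallest log2 ratio of replicate 2 to replicate 1, 0.015, beside 0.076 for Mir138-1 and 0.13 for Mir138-2.

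Mir129-2 had 16361 counts in replicate 1 and 4023 in replicate 2, or 3167 and 902.0 CPM (2034 ± 1601). Its copy Mir129-1 had 2442 and 823 counts, or 472.6 and 184.5 CPM (328.6 ± 203.7). Both miR-129 genes were thus higher in replicate 1, and they had the largest coefficients of variation of the 10 genes, 78.7% and 62.0%.

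Mir153 had 937 and 1268 counts, or 181.4 and 284.3 CPM (232.8 ± 72.8). Mir218-2 had 632 and 944 counts, or 122.3 and 211.7 CPM (167.0 ± 63.2). Mir218-1, the lowest of the set, had 217 and 107 counts, or 42.0 and 24.0 CPM (33.0 ± 12.7). Even this level stood far above what a count of 0 allows, 0.581 CPM in replicate 1 and 0.673 CPM in replicate 2.

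**Figure D2:**
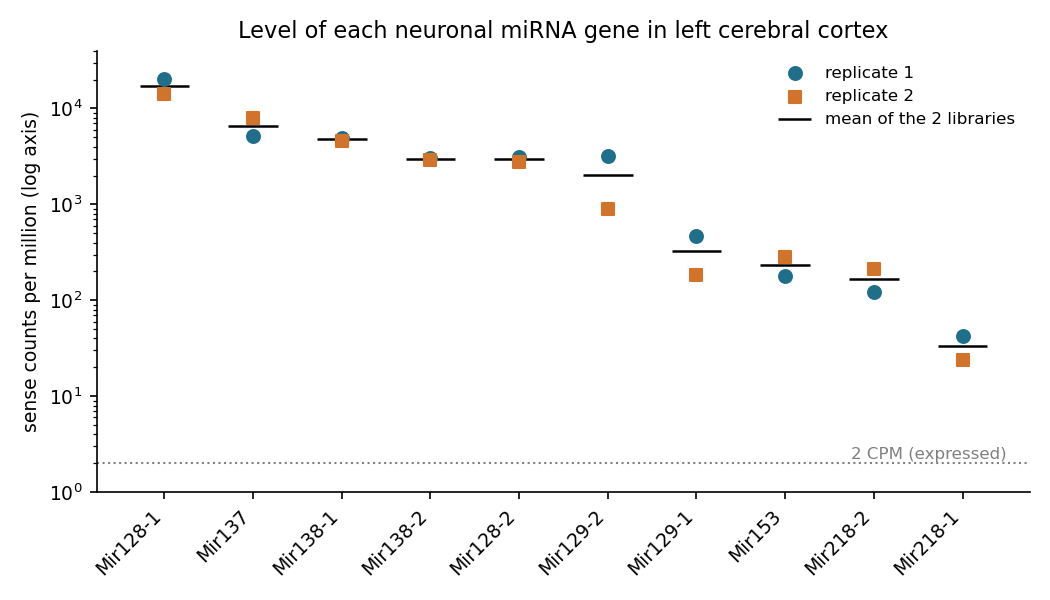
Level in CPM of sense counts (log axis) of the 10 genes in replicate 1 (circles) and replicate 2 (squares), with the mean of the libraries as a line, in order of the mean. Mir128-1 is highest at 20358 and 14077 CPM, the libraries nearly coincide for the miR-138 genes, and they lie farthest apart for Mir129-2 at 3167 and 902.0 CPM.

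In order of mean level the genes ran Mir128-1, Mir137, Mir138-1, Mir138-2, Mir128-2, Mir129-2, Mir129-1, Mir153, Mir218-2 and Mir218-1. Of the 9 neighbouring pairs in this order, 4 had ranges that did not overlap and a gap in means above the larger SD: Mir128-1 above Mir137, Mir138-1 above Mir138-2, Mir129-2 above Mir129-1, and Mir218-2 above Mir218-1. Mir137 and Mir138-1 did not overlap, but their means differed by 1853 CPM, less than the SD of Mir137. The other 4 pairs overlapped, and in 3 of them the order was swapped between the libraries: Mir138-2 with Mir128-2, Mir128-2 with Mir129-2, and Mir129-1 with Mir153. The order is that of assigned reads, and levels of genes with a copy may be too low.

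The split of each family over its copies needs no scaling between libraries, and each family had the same higher copy in both. Of the reads counted for miR-128, Mir128-1 held 86.6% in replicate 1, with an exact 95% interval of 86.4% to 86.8%, and 83.6% (83.3% to 83.8%) in the other library, or 6.46 and 5.09 times the counts of Mir128-2. Mir138-1 held 61.9% (61.5% to 62.4%) and 61.1% (60.6% to 61.6%) of its pair. In the miR-129 family it was the second copy that led: Mir129-1 held 13.0% (12.5% to 13.5%) and 17.0% (15.9% to 18.1%), and Mir129-2 had 6.70 and 4.89 times its counts. Mir218-1 held 25.6% (22.7% to 28.6%) and 10.2% (8.42% to 12.2%), with Mir218-2 at 2.91 and 8.82 times its counts. Reads listed with several places are not in these shares, which therefore describe reads placed at 1 gene and not the mature miRNA.

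The shares differed between the libraries beyond counting noise in all 4 families by a two-sided Fisher's exact test, adjusted over the 4. The smallest difference was in miR-138, where the share in replicate 2 was lower by 0.801 percentage points (share difference -0.801, adjusted p = 0.0256). For miR-128 the difference was -3.02 points (adjusted p = 1.12e-74, exact), for miR-218 it was -15.4 points (adjusted p = 1.97e-18, exact), and for miR-129 it was 4.00 points (adjusted p = 2.59e-12, exact). With 1 group, these differences compare the libraries and no condition.

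**Figure D3:**
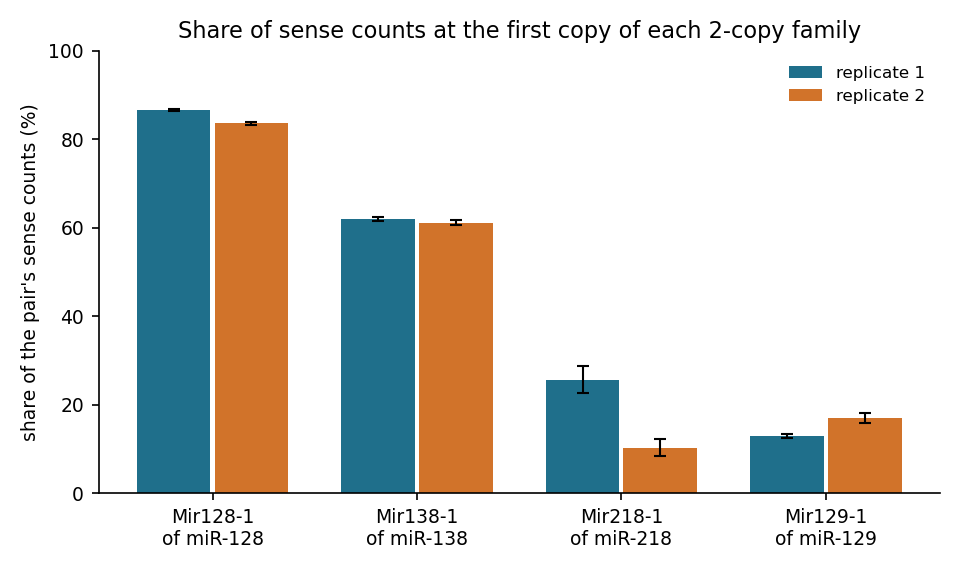
Share of a family's sense counts at its first copy, in percent, for the 4 families with 2 genes, in replicate 1 and replicate 2, with exact 95% intervals of counting error as bars. The first copy holds most counts in miR-128 and miR-138 and the smaller part in miR-218 and miR-129, in both libraries; miR-218 shows the widest gap, 25.6% against 10.2%.

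The libraries differed at most of these genes by more than counting noise, as they did at most miRNA genes. By the exact binomial test 9 of the 10 were called, beside 67.1% of all 438 genes tested. These shares are not at like depth, since the test calls smaller differences at higher counts. The 10 genes had a median level of 2497 CPM, beside 88.9 CPM for all expressed genes. Higher in replicate 1 were 5 of the 10, beside 34.5% of all genes, and higher in replicate 2 were 4, beside 32.6%. The split moved with the scaling: raw totals put 7 of the 10 higher in replicate 1 and 3 higher in replicate 2, beside 40.6% and 27.2% of all genes, and DESeq2 size factors put 4 and 5, beside 33.3% and 35.4%. The median size of the log2 ratio was 0.72 over the 10 genes and 0.59 over all genes tested, and the median signed log2 ratio was -0.03 beside -0.08.

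The miR-129 genes were the 2 that differed over 2-fold, with log2 ratios (replicate 2 over replicate 1, scaled by TMM) of -1.68 for Mir129-2 and -1.23 for Mir129-1; 27.2% of all genes tested did so. Mir218-1 had a log2 ratio of -0.67 and its copy Mir218-2 of 0.92, so the called differences of the miR-218 copies ran in opposite directions. Mir128-1 was lower in replicate 2 at -0.40. Higher in replicate 2, like Mir218-2, were Mir137 at 0.76 and Mir153 at 0.78. Mir138-1 lay at 0.00 and did not pass (exact binomial test, adjusted p = 0.847).

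The remaining 2 calls depended on the scaling. Mir138-2 had a log2 ratio of 0.05 with TMM and 0.13 with DESeq2 size factors, but -0.078 with raw totals. Mir128-2 had -0.06 with TMM and -0.19 with raw totals, but 0.015 with DESeq2 size factors, where it did not pass (exact binomial test, adjusted p = 0.442). Raw totals moved every log2 ratio by -0.13 against TMM, which also took Mir138-1 to -0.13 and past the threshold. The DESeq2 size factors were taken with no count minimum and may rest on low counts. They were 1.155 and 0.866 in replicates 1 and 2, with the sense and the unstranded column alike.

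When the spread common to all genes was assumed for each gene, none of the 10 passed. That spread was a coefficient of variation of 45.1%, estimated by edgeR over 407 genes from the same libraries. With it, edgeR's exact test called 0 of the 10 genes at an adjusted p under 0.05, beside 0.457% of the 438 genes tested. At an unadjusted p under 0.05 it called 0 of the 10, beside 31 of the 438. At such shares few or no calls would fall among any 10 genes picked at random. Each arm then holds 1 library, so this is a comparison under an assumption and no replicated test.

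**Figure D4:**
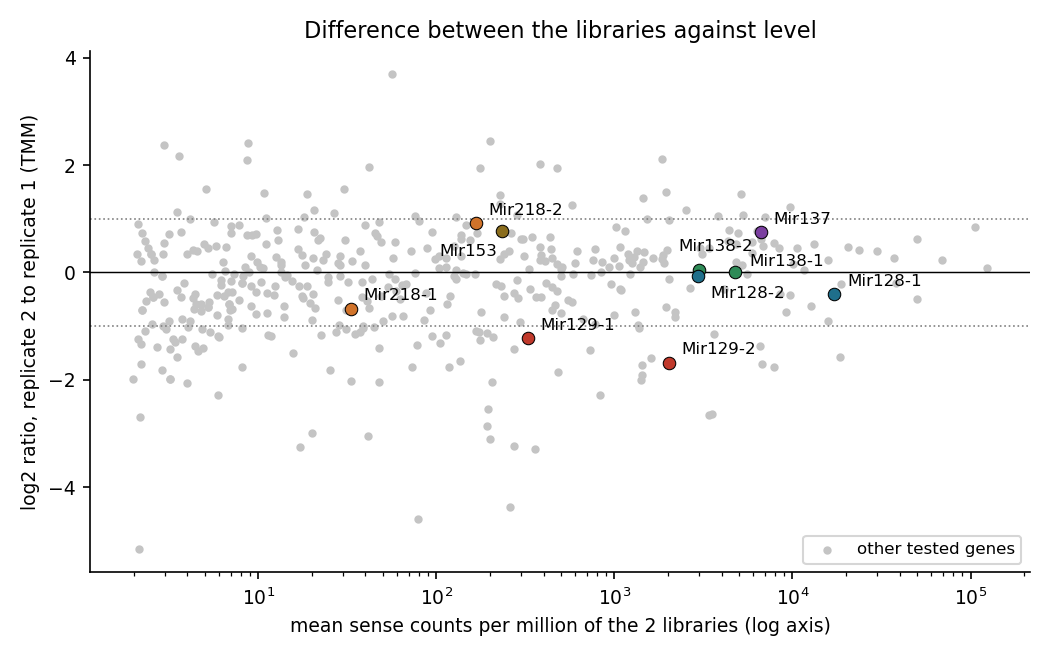
Log2 ratio (replicate 2 over replicate 1, scaled by TMM) against mean level (log axis) for the 438 genes tested (grey), with the 10 neuronal genes coloured by family; dotted lines mark a 2-fold difference. The miR-129 genes lie below the lower line at -1.68 and -1.23, the miR-218 copies lie on opposite sides of 0, and the miR-138 genes and Mir128-2 lie close to 0.

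At 9 of the 10 genes the choice of strand column made no difference: the unstranded and the sense counts were equal and the other strand held 0 counts. Mir129-2 was the exception. Its 16361 sense counts in replicate 1 and 4023 in replicate 2 became 21 and 23 in the unstranded column, a loss of 99.9% and 99.4%. The 16340 and 4000 counts lost equal the other-strand counts of Mir129b, which had 1 and 3 sense counts of its own. With the unstranded column Mir129-1 would hold 99.1% and 97.3% of the miR-129 counts in place of 13.0% and 17.0%.

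Other listed miRNA genes of neurons ran from a mean of 0.306 CPM for Mir124a-3 to 38067 CPM for Mir132, a wider range than that of the 10 genes. Of 16 listed genes, 13 were expressed, and all 16 together held 50733 CPM in replicate 1 and 42078 in replicate 2. Mir132, induced by neuronal activity, was the highest at 42450 and 33684 CPM and stood above Mir128-1 in both libraries. Mir383 had 5880 and 5278 CPM and Mir7b had 1086 and 1967 CPM. Mir212, the neighbour of Mir132, had 671.8 and 427.6 CPM, and Mir134, which acts in dendrites of rat neurons, had 371.6 and 396.6 CPM. Mir9-3, Mir9-1, Mir9-2, Mir7-1, Mir7-2, Mir135a-1, Mir135a-2 and Mir135b had means between 2.51 and 80.1 CPM. The 3 listed genes that were not expressed were those of miR-124, all 3 below 2 CPM in replicate 2. Because miR-124, miR-9, miR-7 and miR-135a are each made from several genes, reads of their shared arms may be among those listed with several places, so these low counts do not show that the miRNAs were absent or scarce; how many such reads there were was not tested. By the binomial test 10 of the 14 list genes tested were called, beside 67.1% of all genes, with 4 higher in replicate 1 and 6 higher in replicate 2, beside 34.5% and 32.6%.

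Nearest in level to the highest gene of each family, over 2 libraries only, were Mir29a for Mir128-1 (a distance of 0.23 on the log2 scale), Mir674 for Mir137 (0.09), Mir100 for Mir138-1 (0.13), Mir668 for Mir129-2 (0.44), Mir384 for Mir153 (0.24) and Mir467e for Mir218-2 (0.14). The largest of these 6 distances was that of Mir129-2, whose nearest gene Mir668, of the imprinted Dlk1-Dio3 cluster, had 2475 and 752.5 CPM.

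Lists of miRNAs known from other cell types were summed in the same libraries. Most sums rest on a few genes that did not all differ the same way. Over all 438 genes tested, 67.1% were called, 34.5% higher in replicate 1 and 32.6% higher in replicate 2. No list holds enough genes to read its calls as a trait of a cell type. The epithelium list had 7 of 7 genes expressed and tested and stood at 1555 and 398.0 CPM in replicates 1 and 2. Of its 7 genes 6 were called higher in replicate 1, and Mir203 was called higher in replicate 2, at 77.8 and 274.0 CPM. The list of endothelium and mural cells had 3 of 5 genes expressed and Mir126b at 0. Its sum of 26334 and 20307 CPM was higher in replicate 1 through Mir126a, an endothelial miRNA, at 21256 and 10411 CPM. Mir143 and Mir145a, known from mural cells, were called higher in replicate 2, at 4865 and 9150 CPM and at 211.7 and 745.7 CPM.

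The glia list, with 7 of 7 genes expressed and tested, stood at 35396 and 45061 CPM, higher in replicate 2. For this list and those below, the share of all genes called was again 67.1%, with 34.5% higher in replicate 1 and 32.6% in replicate 2. Mir23a and Mir23b held most of that sum; 4 of the 7 genes were called higher in replicate 2, and Mir24-1 and Mir24-2 were called higher in replicate 1. The list of choroid plexus and ciliated cells (4 of 7 genes expressed, Mir449b at 0) stood at 726.0 and 1113 CPM. Of its 4 genes tested 2 were called, both higher in replicate 2. The microglia and leukocyte list (6 of 7 genes expressed, Mir142b at 0) stood at 1941 and 2008 CPM. Of its 6 genes tested 4 were called, all 4 higher in replicate 2. The oligodendrocyte list (2 of 4 genes expressed, Mir219b at 0) stood at 3952 and 3864 CPM. All 3 of its genes tested were called, 2 of them higher in replicate 1. In the red cell list 2 of 4 symbols matched and both were expressed, at a sum of 79.2 and 52.7 CPM. Both were tested and 1 was called, Mir144, higher in replicate 1. Mir486, a red cell miRNA gene that the tables hold under a symbol the list lacks, had a mean of 30.9 CPM and a log2 ratio of -1.05, and was also called. The part of cell makeup in the differences at the neuronal genes was not tested, and the label "neuronal" rests on what is known of these miRNAs, since no sorted cells were profiled.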

How the data were processed

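Both libraries were small RNA libraries of total RNA, and the tables hold raw read counts per miRNA gene as deposited by the authors, in 3 count columns, 1 that ignores strand and 1 for each strand. Per the deposited descriptions of the files, build mm10 and GENCODE release M21 were used; the aligner, like the counter, is not given in the sources used here. All 2202 gene identifiers matched GENCODE M21. The 4 lines that name no gene held 65.2% and 65.1% of reads and were kept out of totals and tests. The second count column, with the larger stranded total, was taken as sense, and CPM is the sense count per 1000000 sense counts of the library.

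Ratios of replicate 2 to replicate 1 added 0.5 to each count and used TMM-scaled totals from edgeR 4.0.16. For the 438 genes whose counts summed to at least 20 over both libraries, a two-sided exact binomial test set the split of the count against the shares of the TMM-scaled totals. Its p-values were adjusted over those genes (Benjamini-Hochberg) and called under 0.05. The test was tried first on simulated data that held counting noise alone, as the test assumes. That trial does not cover the wider spread between these libraries. The test compares the libraries, knows counting noise alone, and says nothing of a condition. Shares of copies carry exact (Clopper-Pearson) 95% intervals and were compared with a two-sided Fisher's exact test, adjusted over the 4 families. Alternatives were raw totals, DESeq2 1.42.0 size factors, no count minimum, the unstranded column, other additions to each count, and edgeR's exact test with the common dispersion. Intervals and the 3-count limit for a count of 0 cover counting error only, because reads without molecular identifiers are not independent molecules.

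Hairpin and mature sequences are from RefSeq (GRCm38.p6). All 10 genes matched by symbol, at the GENCODE positions. Copies were searched among the annotated miRNA genes and not in the whole genome. The 10 genes, the marker lists and the tests were chosen with earlier results of these data known. Named beside them are the listed neuronal miRNA genes that were expressed, annotated miRNA neighbours within 10 kb, host genes, and for each family the gene nearest in level to its highest copy (Euclidean distance on log2(CPM + 1) over both libraries).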

Additional observations from a re-analysis of the deposited data

Results flagged for a closer look

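Mir129b, on the strand opposite Mir129-2, had 16340 counts on its other strand in replicate 1 and 4000 in replicate 2, far above the limit of 3 counts that a count of 0 allows, in a column that the comparisons did not use. The same numbers of reads were lost from Mir129-2 when strand was ignored. Mir129b overlaps Mir129-2 by 65 bases, and reads opposite Mir129b there are sense reads of Mir129-2. They fall within the 16361 and 4023 sense counts of Mir129-2, which the comparisons did use, and are no separate signal of Mir129b.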

How the results depend on the processing

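All 10 genes were expressed at thresholds of 1, 5 and 10 CPM, with the unstranded column and in either library alone, and 9 of 10 at 100 CPM. The number called was 10 with raw totals (297 of all 438 genes), 9 with DESeq2 size factors (301 of 438) or no count minimum (306 of 771), 8 with the unstranded column (271 of 412) and 0 with edgeR's common spread (2 of 438). Of 60 recomputed log2 ratios, 55 kept their direction and their side of the threshold. Many of the 60 could hardly change. Other additions to each count leave the binomial test as it was, and at 9 of the 10 genes the unstranded counts equal the sense counts. Mir138-1 passed with DESeq2 size factors. Directions turned for Mir138-1 (-0.13) and Mir138-2 (-0.078) with raw totals, for Mir128-2 (0.015) with DESeq2 size factors, and for Mir129-2 (0.48) with the unstranded column. The ratio of 0.48 was not called. It rests on the 21 and 23 counts left where the unstranded column removes reads opposite Mir129b. That column also gave Mir129-1 98.2% of its family. The summed level was 13008 when divided by all reads in the table, a larger denominator by construction, 37219 with TMM-scaled totals and 38219 with the unstranded column, and ran from 33938 to 40730 in single libraries. The comparison of the libraries needs both, so it gives no value without either. No paired analysis was possible because there is 1 group. Depth limits Mir218-1 most, whose 107 counts in replicate 2 allow 19.7 to 29.0 CPM (exact 95% interval).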
